A study of Mus musculus with 6 samples.

Results

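The lysosomal proton pump and the genes that couple it to growth signalling were followed in cells selected as macrophages from mouse epididymal fat. The set of 38 genes was chosen by name, with earlier results of these data known. It holds 17 genes of the vacuolar ATPase and its accessory proteins, the 2 genes of the chloride-proton exchanger, 18 genes of the lysosomal mTORC1 machinery and the MiT transcription factors, and Gpnmb, a target of those factors. For each gene the array row with that symbol and the highest mean over all arrays was used. This gave 37 of the 38 genes, among 31715 rows with a gene symbol that were tested in all, and Atp6v0c was not analysed here.

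The animals were male C57BL/6J mice aged 22 weeks that had been on 1 of 2 diets for 16 weeks, from 6 weeks of age. The HFD group received a high-fat diet (60% fat) and the NCD group received normal chow. Cells of the collagenase-digested fat that bound an antibody to the macrophage surface protein that Adgre1 encodes were collected with magnetic beads. HFD had 3 arrays, each from the pooled cells of 10 mice, and NCD had 3 arrays, each from the pooled cells of 20 mice. The replicate is the pool, and variation from mouse to mouse was averaged within it. Arrays are written HFD1 to HFD3 and NCD1 to NCD3.

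The vacuolar ATPase uses ATP to drive protons into lysosomes. Its cytosolic V1 sector hydrolyses ATP and turns a rotor, and its membrane-bound V0 sector carries the protons. On the same membrane the Ragulator complex anchors the Rag GTPases, which recruit the kinase complex mTORC1 when amino acids are plentiful. mTORC1 phosphorylates TFEB and its relative TFE3 and so helps to keep them out of the nucleus. When they enter it they switch on lysosomal genes, those of the pump among them. TFEC and MITF belong to the same MiT family. Macrophages in obese fat take up lipid and dead adipocytes and digest them in lysosomes. The arrays measured mRNA, and neither the phosphorylation nor the location of a protein.

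MiT factors bind E-box sequences, and the element through which TFEB acts on lysosomal genes is built around TCACGTG. Promoter windows were available for 32 of the 38 genes, as 42 windows of 300 bases that run from 250 bases before to 50 bases after a transcription start (RefSeq, build GRCm38.p6). CACGTG, which reads the same on both strands, was in 9 of the 42 windows (21.4%), against 7.15% of 32851 windows of all genes. TCACGTG, searched on both strands and containing CACGTG, was in 9 member windows (21.4%) against 3.77% of all windows, so that all 9 member windows with CACGTG held the longer form, against 52.7% of all windows with CACGTG. The related TCATGTG, also searched on both strands, was in 4 member windows (9.52%) against 3.77% of all windows. The genes with TCACGTG were Atp6v0b, Atp6v0d1, Atp6v0e, Atp6v1a, Clcn7, Lamtor1, Lamtor4, Fnip1 and Rragc, of which 6 rose after HFD and 3 did not pass the test. Among all members with windows, 16 rose and 15 did not pass, so that the element was in 37.5% and 20.0% of them. A link between the element and the rise was not tested. Windows of Atp6v0a2, Atp6v1b2, Atp6v1c1, Atp6v1g1, Atp6v1h and Lamtor3 were not used here. A match describes the letters only. The windows below show members of different roles that rose and carry the element, followed by Gpnmb, the member with the largest rise, whose window holds neither motif. They are printed 5′ to 3′ on the strand of the gene, and capitals mark TCACGTG or TCATGTG on either strand, joined where matches on both strands overlap.
Atp6v0b, chr4:117887280-117887579, minus strand: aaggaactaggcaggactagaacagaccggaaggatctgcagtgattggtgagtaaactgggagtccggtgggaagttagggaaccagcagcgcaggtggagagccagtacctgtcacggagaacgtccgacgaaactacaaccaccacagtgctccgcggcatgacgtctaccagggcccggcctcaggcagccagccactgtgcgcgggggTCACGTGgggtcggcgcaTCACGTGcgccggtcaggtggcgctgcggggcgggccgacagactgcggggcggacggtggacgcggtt
Atp6v1a, chr16:44139210-44139509, minus strand: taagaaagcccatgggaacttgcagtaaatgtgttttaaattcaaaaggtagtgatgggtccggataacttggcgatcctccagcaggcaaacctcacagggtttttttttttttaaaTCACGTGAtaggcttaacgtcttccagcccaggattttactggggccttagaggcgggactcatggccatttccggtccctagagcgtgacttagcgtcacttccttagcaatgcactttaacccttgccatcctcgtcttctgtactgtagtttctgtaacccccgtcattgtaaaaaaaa
Clcn7, chr17:25133141-25133440, plus strand: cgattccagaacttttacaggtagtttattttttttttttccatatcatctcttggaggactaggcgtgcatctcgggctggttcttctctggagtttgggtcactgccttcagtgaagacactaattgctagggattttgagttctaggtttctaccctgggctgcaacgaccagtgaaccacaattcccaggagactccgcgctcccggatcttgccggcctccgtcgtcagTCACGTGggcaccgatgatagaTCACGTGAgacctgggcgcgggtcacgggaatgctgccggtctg
Lamtor1, chr7:101905587-101905886, plus strand: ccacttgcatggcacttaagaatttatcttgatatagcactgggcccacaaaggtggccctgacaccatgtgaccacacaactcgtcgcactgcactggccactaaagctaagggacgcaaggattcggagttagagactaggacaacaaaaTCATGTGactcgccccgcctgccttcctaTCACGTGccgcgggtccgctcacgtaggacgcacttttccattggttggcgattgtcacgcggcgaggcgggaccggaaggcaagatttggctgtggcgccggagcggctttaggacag
Gpnmb, chr6:49036268-49036567, plus strand: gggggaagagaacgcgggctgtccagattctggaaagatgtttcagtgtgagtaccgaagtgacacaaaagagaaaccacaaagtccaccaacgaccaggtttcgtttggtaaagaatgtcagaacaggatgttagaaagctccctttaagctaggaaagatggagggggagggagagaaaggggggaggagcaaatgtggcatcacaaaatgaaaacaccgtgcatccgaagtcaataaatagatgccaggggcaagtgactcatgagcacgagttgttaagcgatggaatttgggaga
In the Atp6v0b window the CACGTG matches began 36 and 18 bases before the start (positions -36 and -18). The match in Atp6v1a began at -131 and that in Lamtor1 at -68. Clcn7 had a match on each side of its start, at -15 and 8.

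Transcripts of the proton pump were raised in the antibody-selected cell pools from HFD mice. Markers of other cell types differed between these pools too, as described below. Of 16 measured pump subunits and accessory proteins, 13 rose, 0 fell and 3 did not pass the test. Their median change was 0.99 on the log2 scale (1.98-fold), against 0.01 over all rows tested, and it was 0.92 in the V0 sector and 1.06 in the V1 sector. Of the 18 regulators, 4 rose, 0 fell and 14 did not pass, with a median change of 0.63 (1.55-fold). An unadjusted limma p below 0.05 was found for 15 of the 16 pump genes and 15 of the 18 regulators. Over all 31715 rows it was found for 7703, in either direction. Clcn7, Ostm1 and Gpnmb rose too, so that 20 of the 37 measured members rose. Over all rows tested 4.89% were called higher and 2.82% lower. Those rows include many with means below the array background of 6.23, where 0 of the 37 members lay. With such rows dropped, 1961 of 16642 rows and 26 of the 37 members were called higher. All 37 members had a change above 0. In 33 of them every HFD array lay above every NCD array, which was the case for 17.5% of all rows, those below background included. The members were chosen with earlier results of these data known, so these shares are a description and not a test of the set.

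Changes here are differences of log2 array level, HFD minus NCD, given with the moderated standard error from limma and 3 arrays per diet. A gene was called where its Benjamini-Hochberg adjusted p-value, computed over the 31715 rows, was below 0.05. Levels are log2 values from a gene's own probes and are compared between arrays, never between genes. In RNA from a whole cell preparation, fewer cells of a type and less RNA per cell cannot be told apart.

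**Figure D1:**
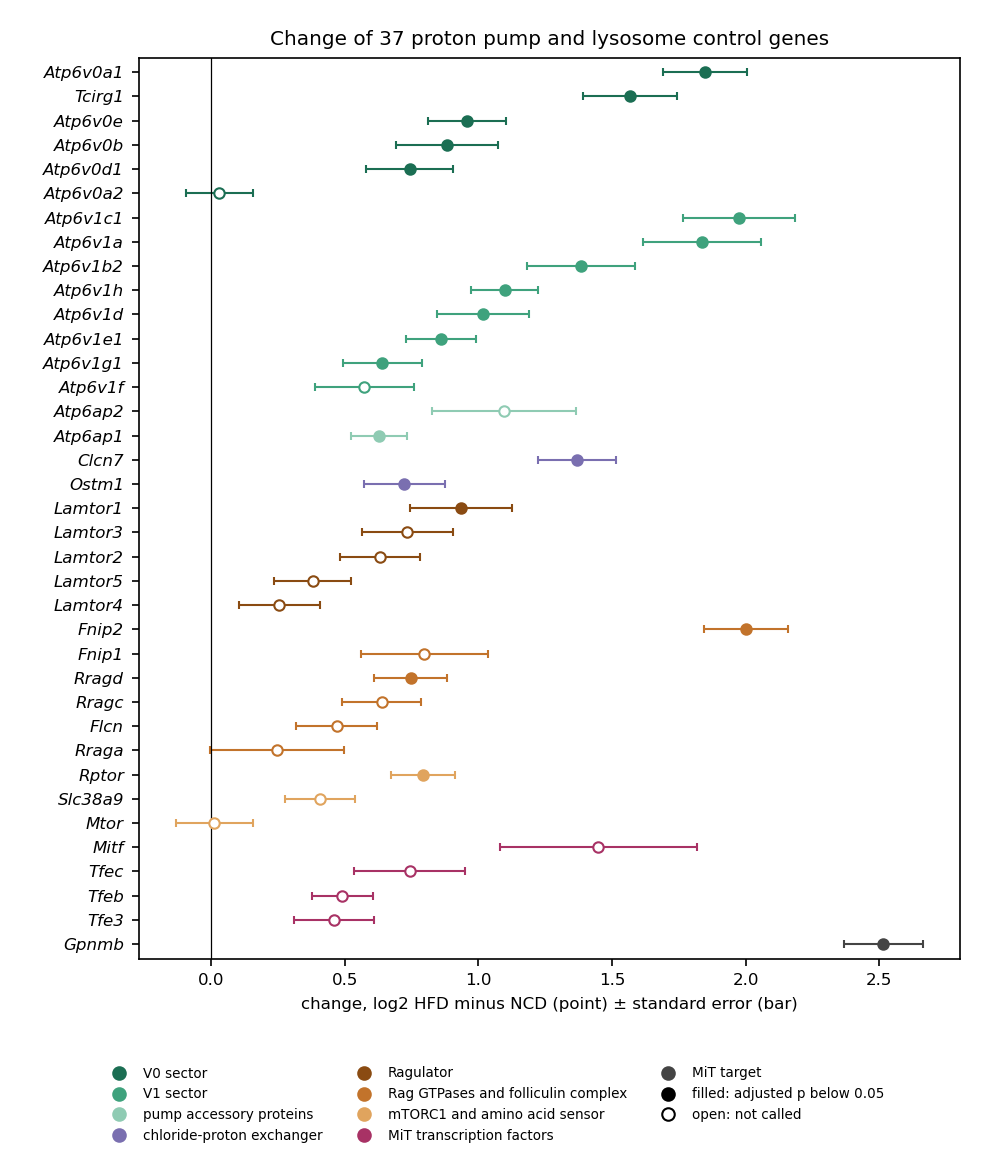
Change of each of the 37 measured genes, as log2 HFD minus NCD (horizontal axis, points) with its standard error (bars), grouped by role down the page. Filled points are the 20 genes called at an adjusted p below 0.05; all 37 points lie above 0, and Gpnmb at 2.51 is the highest.

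In the V0 sector 5 of 6 measured subunits rose, with a median change of 0.92. The membrane subunit a, which forms the path of the protons, exists as several isoforms that differ in their tissue and organelle. Its isoform a1, Atp6v0a1, had levels of 15.19, 15.41 and 15.55 in HFD arrays, against 13.75, 13.56 and 13.30 in NCD arrays. The HFD arrays lay 1.44 or more above the highest NCD array, and the gene rose 3.60-fold (1.85 ± 0.16, adjusted p = 0.00386). Isoform a3, encoded by Tcirg1 and best known from the acid-secreting membrane of osteoclasts, had levels of 12.94, 12.97 and 13.16 in HFD arrays, against 11.61, 11.66 and 11.10 in NCD arrays. It rose 2.96-fold (1.57 ± 0.18, adjusted p = 0.00786), again without overlap. Isoform a2, Atp6v0a2, found at the Golgi apparatus and endosomes, had levels of 11.07, 11.12 and 11.19 in HFD arrays, against 10.95, 11.06 and 11.29 in NCD arrays. The groups overlapped, and the change was 0.03 with a 95% interval from -0.27 to 0.33 (adjusted p = 0.919). The difference between the changes of the isoforms was not tested.

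The other V0 subunits measured had changes of 0.74 to 0.96. Atp6v0b, a proteolipid of the proton-carrying ring, had levels of 12.47, 12.56 and 12.74 in HFD arrays, against 11.72, 12.04 and 11.36 in NCD arrays (0.88 ± 0.19, adjusted p = 0.0416). Atp6v0d1, which links the ring to the rotor, had levels of 13.03, 13.14 and 13.48 in HFD arrays, against 12.49, 12.65 and 12.28 in NCD arrays (0.74 ± 0.16, adjusted p = 0.0438). Atp6v0e, a small membrane subunit, had levels of 12.94, 13.00 and 13.29 in HFD arrays, against 11.93, 12.23 and 12.20 in NCD arrays (0.96 ± 0.15, adjusted p = 0.0159). In these 3 genes HFD3 was the highest array, and no HFD array reached down to an NCD array.

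All 8 measured V1 subunits had HFD arrays above NCD arrays, and 7 of the 8 rose, with a median change of 1.06. The ring that hydrolyses ATP is made of A and B subunits. Atp6v1a, the catalytic A subunit, had levels of 14.31, 14.28 and 14.56 in HFD arrays, against 13.01, 12.44 and 12.19 in NCD arrays, and rose 3.57-fold (1.84 ± 0.22, adjusted p = 0.00928). Atp6v1b2, the B subunit isoform of most tissues, had levels of 15.45, 15.53 and 15.68 in HFD arrays, against 14.57, 14.14 and 13.80 in NCD arrays, and rose 2.61-fold (1.38 ± 0.20, adjusted p = 0.0143). For both, the NCD arrays were spread more widely than the HFD arrays, with SDs of 0.16 (Atp6v1a) and 0.12 (Atp6v1b2) in HFD and of 0.42 and 0.39 in NCD.

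Atp6v1c1 and Atp6v1h take part in joining V1 to V0 and in controlling the joined pump. Atp6v1c1 had levels of 14.70, 14.73 and 14.98 in HFD arrays, against 13.28, 12.56 and 12.64 in NCD arrays, and its rise of 3.93-fold was the largest of the 16 measured pump members (1.97 ± 0.21, adjusted p = 0.0071). Atp6v1h had levels of 12.07, 12.01 and 12.16 in HFD arrays, against 11.15, 10.83 and 10.96 in NCD arrays (1.10 ± 0.12, adjusted p = 0.00803). The closest arrays of the diets were 1.42 apart for Atp6v1c1 and 0.86 apart for Atp6v1h.

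The subunits of the rotor shaft and the outer stalks had changes of 0.57 to 1.02. Atp6v1d, part of the central shaft, had levels of 13.36, 13.44 and 13.63 in HFD arrays, against 12.76, 12.17 and 12.44 in NCD arrays (1.02 ± 0.17, adjusted p = 0.0212). Its partner in the shaft, Atp6v1f, did not pass the test (0.57 ± 0.19, adjusted p = 0.119). Atp6v1e1 and Atp6v1g1 form the stalks that hold the ring still. Atp6v1e1 had levels of 13.83, 13.80 and 14.09 in HFD arrays, against 13.19, 13.03 and 12.92 in NCD arrays (0.86 ± 0.13, adjusted p = 0.0161). Atp6v1g1 had levels of 11.06, 10.88 and 11.21 in HFD arrays, against 10.61, 10.25 and 10.36 in NCD arrays, and stood just inside the threshold (0.64 ± 0.15, adjusted p = 0.0499).

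Of the accessory proteins, Atp6ap1, which assists assembly of V0, rose. It had levels of 14.43, 14.38 and 14.61 in HFD arrays, against 13.87, 13.87 and 13.80 in NCD arrays (0.63 ± 0.10, adjusted p = 0.0201). Atp6ap2, also called the prorenin receptor, had a larger change but did not pass the test. It had levels of 14.88, 15.04 and 15.08 in HFD arrays, against 14.55, 13.56 and 13.60 in NCD arrays (1.10 ± 0.27, adjusted p = 0.06). NCD1 stood about 1 log2 unit above NCD2 and NCD3 in this gene.

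The chloride-proton exchanger of lysosomes is built of Clcn7 and its partner Ostm1, and both rose. Clcn7, the transporter itself, had levels of 11.66, 11.65 and 11.94 in HFD arrays, against 10.53, 10.44 and 10.18 in NCD arrays, a rise of 2.58-fold (1.37 ± 0.15, adjusted p = 0.00717). Ostm1, which stabilises it, had levels of 9.50, 9.69 and 9.64 in HFD arrays, against 9.17, 8.79 and 8.70 in NCD arrays (0.72 ± 0.15, adjusted p = 0.038). Neither gene's groups overlapped.

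**Figure D2:**
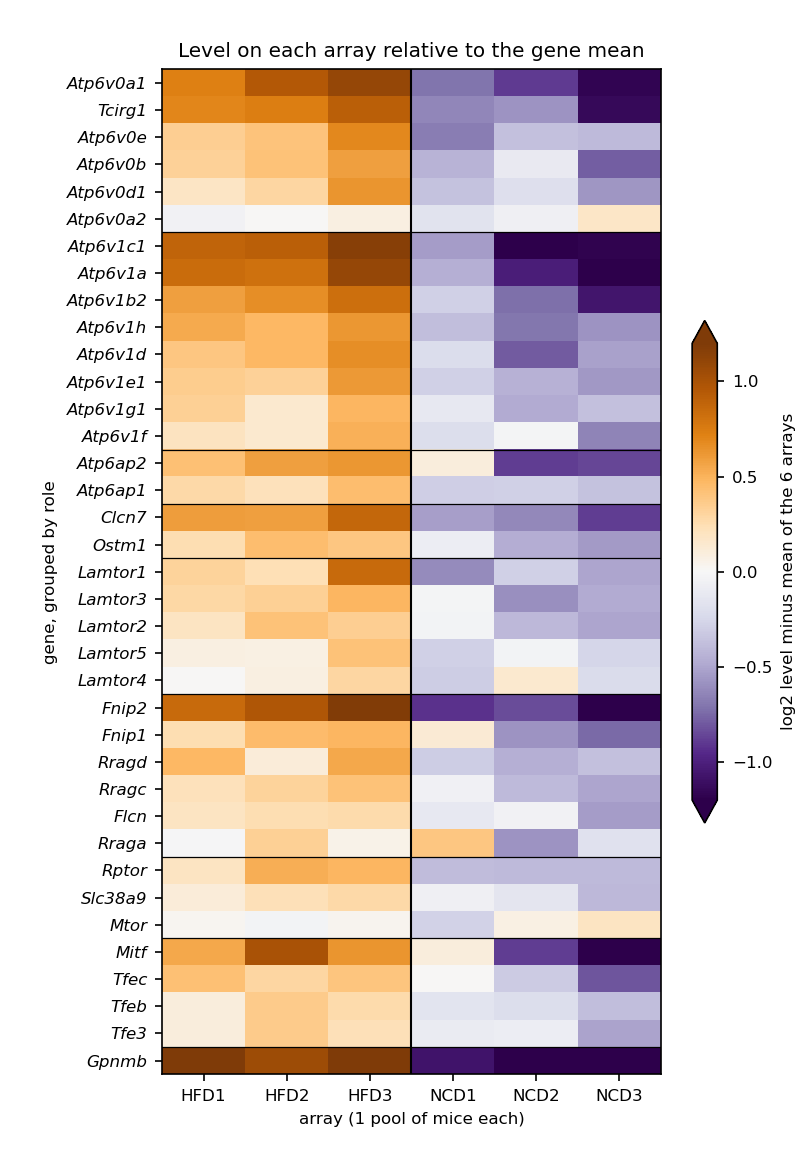
Level of each measured gene on each array (log2 level minus the gene's mean over the 6 arrays, colour scale ending at 1.2 in either direction), with the HFD arrays left of the NCD arrays and horizontal lines between roles. The pump rows are warm in every HFD array except for Atp6v0a2, and Mtor and Rraga show no split by diet.

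Of the 5 Ragulator genes, 1 rose and 4 did not pass the test, with a median change of 0.63. Lamtor1 carries the lipid anchor that ties the complex to the lysosome. It had levels of 9.78, 9.71 and 10.32 in HFD arrays, against 8.86, 9.18 and 8.97 in NCD arrays (0.94 ± 0.19, adjusted p = 0.0357), and HFD3 stood above the other HFD arrays. Lamtor2 (0.63 ± 0.15, adjusted p = 0.0537) and Lamtor3 (0.73 ± 0.17, adjusted p = 0.051), which form a dimer within the complex, lay just outside the threshold. A second row of Lamtor3 gave 0.61. Lamtor5 had a change of 0.38 ± 0.14, and Lamtor4 had a change of 0.26 ± 0.15 with overlapping groups.

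Among the 6 genes of the Rag GTPases and the folliculin complex, 2 rose. The folliculin complex acts on the Rag GTPases RagC and RagD and is needed for mTORC1 to phosphorylate TFEB. Fnip2, a partner of folliculin, had levels of 12.04, 12.16 and 12.38 in HFD arrays, against 10.27, 10.35 and 9.95 in NCD arrays. The nearest arrays of the diets were 1.69 apart, and its rise of 4.0-fold (2.00 ± 0.16, adjusted p = 0.00299) was the largest among the regulators. Fnip1, the other partner, had a change of 0.80 ± 0.24 (adjusted p = 0.0967). Flcn, folliculin itself, had levels of 9.44, 9.49 and 9.51 in HFD arrays, against 9.13, 9.21 and 8.70 in NCD arrays. Its groups did not overlap, but it did not pass the test (0.47 ± 0.15, adjusted p = 0.117).

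Rragd, encoding RagD, had levels of 7.97, 7.60 and 8.04 in HFD arrays, against 7.20, 7.05 and 7.13 in NCD arrays, and rose 1.68-fold (0.75 ± 0.14, adjusted p = 0.0256). Rragc, encoding the related RagC, had a change of 0.64 ± 0.15 (adjusted p = 0.0515). Rraga encodes RagA, which pairs with RagC or RagD. Its change was 0.25 ± 0.25 (adjusted p = 0.629), and its highest array of all was NCD1.

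Mtor encodes the mTORC1 kinase and Rptor its subunit raptor, which recruits substrates. Mtor had levels of 9.61, 9.56 and 9.63 in HFD arrays, against 9.32, 9.66 and 9.79 in NCD arrays. The groups overlapped, and the change was 0.01 with a 95% interval from -0.33 to 0.36 (adjusted p = 0.974). Rptor had levels of 9.588, 9.913 and 9.875 in HFD arrays, against 9.004, 8.995 and 8.997 in NCD arrays, and rose 1.73-fold (0.79 ± 0.12, adjusted p = 0.0159). The difference between the changes of Mtor and Rptor was not tested. Slc38a9, a lysosomal arginine transporter that signals to the Rag GTPases, had a change of 0.41 ± 0.13 (adjusted p = 0.114).

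None of the 4 MiT transcription factor genes passed the test (0 of 4 with limma after adjustment, 4 of 4 at an unadjusted p below 0.05), although in all 4 the HFD arrays lay above the NCD arrays. Tfeb had levels of 8.30, 8.56 and 8.47 in HFD arrays, against 8.04, 7.99 and 7.82 in NCD arrays (0.49 ± 0.11, adjusted p = 0.0509). Tfe3 had levels of 8.71, 8.97 and 8.84 in HFD arrays, against 8.51, 8.53 and 8.10 in NCD arrays (0.46 ± 0.15, adjusted p = 0.12). Both are expressed in many tissues. Tfec, which is expressed mainly in the macrophage and osteoclast lineage, had levels of 9.49, 9.37 and 9.46 in HFD arrays, against 9.08, 8.76 and 8.26 in NCD arrays (0.74 ± 0.21, adjusted p = 0.0838). Mitf, the melanocyte and osteoclast regulator, had levels of 12.43, 12.88 and 12.51 in HFD arrays, against 11.98, 10.99 and 10.50 in NCD arrays. Its change of 1.45 was the largest of the 4 and had the largest standard error of all members, 0.37 (adjusted p = 0.0652).

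Gpnmb encodes a transmembrane glycoprotein that is a known target of MITF and is abundant in lipid-laden macrophages. It had levels of 17.52, 17.31 and 17.70 in HFD arrays, against 15.18, 15.04 and 14.77 in NCD arrays. No HFD array came within 2.13 of an NCD array, and its rise of 5.72-fold was the largest of the members (2.51 ± 0.15, adjusted p = 0.00154).

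Pump genes were compared with regulators on each array by the median deviation of their genes from the 6-array mean. The pump medians were 0.37, 0.44 and 0.63 on HFD1 to HFD3, against -0.32, -0.53 and -0.61 on NCD1 to NCD3. The regulator medians were 0.19, 0.32 and 0.41 on the HFD arrays, against -0.11, -0.36 and -0.49 on the NCD arrays. Pump minus regulator was thus 0.18, 0.12 and 0.22 in HFD and -0.21, -0.17 and -0.12 in NCD. On every array the pump median was further from 0 than the regulator median. The difference between the median changes of the groups was 0.35, and it ran from 0.28 to 0.44 when each array was left out in turn. It is a description with no test, since genes of 1 complex are not replicates of a diet.

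**Figure D3:**
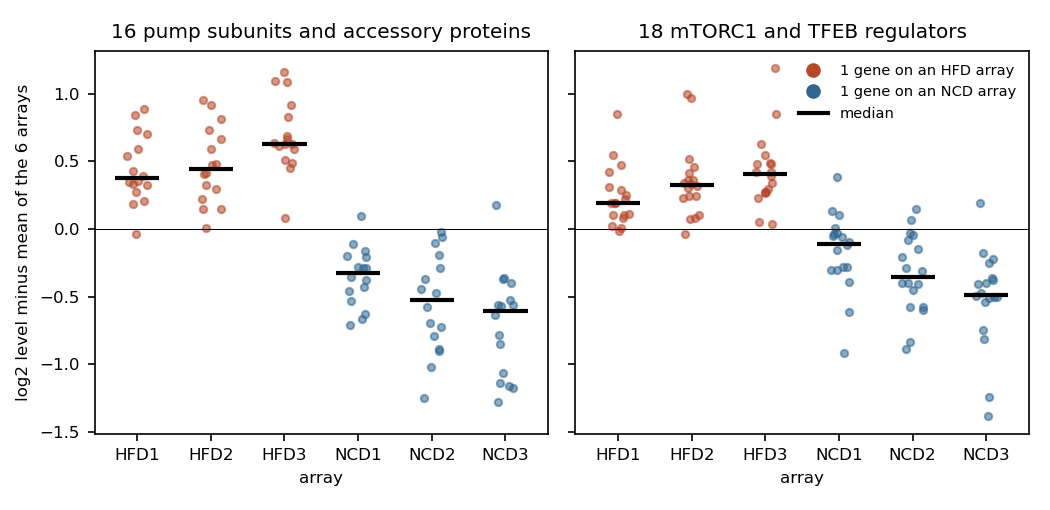
Log2 level minus the gene's mean over the 6 arrays (vertical axis) for 16 pump genes (left) and 18 regulators (right) on each array, 1 point per gene, with the median as a black line. The pump medians reach 0.63 on HFD3 and -0.61 on NCD3, and the regulator medians 0.41 and -0.49.

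Many members, but not all, had the same array highest or lowest within a diet. How often this was so over all rows was not counted. HFD3 was the highest HFD array in 16 of 16 pump genes and in 11 of 18 regulators. In 6 regulators HFD2 was the highest. NCD1 was the highest NCD array in 9 of the pump genes and in 11 of the regulators, and NCD3 was the lowest in 9 and in 10. NCD2 was the highest NCD array in 6 pump genes and 6 regulators. The SD was larger in NCD than in HFD for 28 of the 37 members, with medians of 0.14 in HFD and 0.24 in NCD. Among the 18 regulators the widest spread in NCD was 0.76, in Mitf.

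The calls depended on single arrays, among the members and over all rows alike. Over all rows, 1551 were called higher with all 6 arrays, 323 without HFD3, 291 without HFD2 and 311 without NCD2. The number was 734 without HFD1, 979 without NCD3 and 2508 without NCD1. The count of called pump genes was 4 when HFD3 was left out, 5 without HFD2 and again 5 without NCD2, 7 without HFD1, 10 without NCD3 and 14 without NCD1. Of the regulators, 1 was called when HFD3 or NCD2 was left out, 2 when HFD1, HFD2 or NCD3 was, and 11 when NCD1 was. The genes called in all 6 of these fits were Atp6v0a1, Tcirg1, Atp6v1c1, Atp6v1h, Clcn7, Fnip2 and Gpnmb. The changes themselves moved less: the pump median was 0.90 to 1.05 and the regulator median 0.53 to 0.77.

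Other genes that work beside the pump were read from lists of their own. Of 10 measured assembly and regulation factors of the pump, 5 rose and 5 did not pass, with a median change of 0.52. Wdr7, Dmxl1 and Dmxl2 encode rabconnectin proteins, which help V1 to dock on V0. Wdr7 rose by 0.97 ± 0.12 (adjusted p = 0.0105), Dmxl1 by 0.56 ± 0.12 (adjusted p = 0.045) and Dmxl2 by 0.50 ± 0.10 (adjusted p = 0.0384). Rogdi, on the same list, had overlapping groups and a change of -0.10 ± 0.12 and did not pass (adjusted p = 0.703). Of the assembly factors of V0 in the endoplasmic reticulum, Vma21 rose by 1.14 ± 0.20 (adjusted p = 0.0238) and Tmem199 by 0.68 ± 0.10 (adjusted p = 0.0133), whereas their partner Ccdc115 had a change of 0.54 ± 0.17 and did not pass (adjusted p = 0.113). Of the 10 factors 0 were called with the mean deviation of endothelial markers as a covariate, 3 when all transcript clusters were tested, and 0 to 6 without 1 array, with 0 when HFD2 or HFD3 was left out.

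Of 8 pump isoforms restricted to certain tissues, 1 rose, 1 was called lower and 6 did not pass, with a median change of 0.03, and 5 had means below the background of the arrays. The isoform that rose was Atp6v0d2, the osteoclast and macrophage form of the subunit that links ring and rotor. It had levels of 17.27, 17.35 and 17.48 in HFD arrays, against 15.42, 14.57 and 14.55 in NCD arrays, and rose 5.74-fold (2.52 ± 0.24, adjusted p = 0.00555). The isoform called lower was Atp6v0e2 (adjusted p = 0.0115). Its levels were 4.81, 4.97 and 5.20 in HFD arrays, against 5.75, 5.99 and 5.97 in NCD arrays, each under the array background of 6.23, and no change of expression is read from them. The row is not among those tested when rows below background are dropped, and it was not called with the endothelial covariate.

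Of 10 lysosomal ion channels and exchangers, 4 rose and 6 did not pass, with a median change of 0.22. The rises were in the cation channels Tpcn2 (1.84 ± 0.21, adjusted p = 0.0077) and Tpcn1 (1.29 ± 0.15, adjusted p = 0.00803), in Tmem175, a lysosomal potassium and proton channel (0.59 ± 0.10, adjusted p = 0.0244), and in Mcoln1, the calcium channel whose opening activates the TFEB phosphatase calcineurin (0.49 ± 0.11, adjusted p = 0.0499). The other chloride-proton exchangers on this list, Clcn3, Clcn4, Clcn5 and Clcn6, had changes of -0.13, 0.18, 0.19 and -0.06 and did not pass. Of the 10 genes only Tpcn2 was called with the endothelial covariate, 2 were called when all transcript clusters were tested, and 1 to 3 without 1 array.

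The other lists of mTORC1 pathway genes had medians of -0.02 to 0.08, against 0.01 over all rows. Of 8 measured genes of the mTORC1 core, Rheb and the TSC complex, 1 rose, with a median change of 0.08. It was Tsc1, a subunit of the complex that switches Rheb off (0.56 ± 0.10, adjusted p = 0.0266). It was not called with the endothelial covariate or when all transcript clusters were tested, and the list had 0 called genes without each array in turn except NCD1. Among 16 genes of GATOR, KICSTOR and cytosolic amino acid sensors the median was -0.02 and 0 passed after adjustment, with 5 at an unadjusted p below 0.05. The smallest adjusted p-values were those of Sesn1, a sestrin that restrains mTORC1 (0.87 ± 0.21, adjusted p = 0.0567), and Castor1, an arginine sensor that the array annotation lists as Gatsl3 (-1.15 ± 0.32, adjusted p = 0.0827). Of 8 measured mTORC1 substrates and calcineurin subunits 0 passed, and 0 had an unadjusted p below 0.05, with a median of 0.04. The smallest adjusted p-values there were those of Ppp3r1, the regulatory calcineurin subunit (0.33 ± 0.18, adjusted p = 0.329), and Larp1, an mTORC1 substrate that binds messenger RNA of ribosomal proteins (0.22 ± 0.13, adjusted p = 0.366). The difference between these lists and the lysosomal regulators was not tested.

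Macrophage markers stood above the array background in both diets (0 of 11 below it), and markers of other cells differed. Adgre1 had levels of 16.54, 16.55 and 16.70 in HFD arrays, against 16.08, 15.93 and 15.05 in NCD arrays, and did not pass (0.91 ± 0.27, adjusted p = 0.0931). Of 11 macrophage markers, 2 rose, 1 fell and 8 did not pass, with a median change of 0.13. Their mean deviation was 0.05, 0.15 and 0.24 on the HFD arrays, against 0.05, 0.12 and -0.60 on the NCD arrays, so only NCD3 stood apart. Of 11 endothelial markers 0 were called, and 9 had an unadjusted p below 0.05; their median change was -1.92. Their mean deviation was -0.03, -1.43 and -1.49 on the HFD arrays, against -0.49, 1.47 and 1.98 on the NCD arrays. HFD1 and NCD1 thus lay between the other arrays. Smooth muscle and pericyte markers fell in 6 of 8, with a mean level of 8.21 to 9.46 in HFD arrays and of 10.93 to 12.91 in NCD arrays. Mesothelial markers were called lower in 6 of 6, with a mean level of 5.76 to 5.96 in HFD arrays and of 7.66 to 8.37 in NCD arrays, and 3 of the 6 (Msln, Wt1 and Krt19) had means below background. Proliferation markers rose in 6 of 6, with a mean level of 10.15 to 10.73 in HFD arrays and of 7.91 to 8.77 in NCD arrays. None of the endothelial and smooth muscle markers had a mean below background. Fibroblast and progenitor markers rose in 5 of 7, with a mean level of 9.71 to 10.33 in HFD arrays and of 8.67 to 9.02 in NCD arrays. Mast cell markers rose in 4 of 8, with a mean level of 6.88 to 7.17 in HFD arrays and of 6.11 to 6.35 in NCD arrays. Of 5 eosinophil markers 1 rose, and of 7 dendritic cell markers 1 fell. Markers of T and NK cells, B cells, adipocytes and neutrophils had 0 called genes with limma, with 1, 2, 1 and 2 at an unadjusted p below 0.05.

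Epithelial cells of the epididymis, which carry much vacuolar ATPase, left little signal: 8 of their 9 measured markers had means below background, Atp6v1b1 and Atp6v0a4 among them, and 0 were called (1 at an unadjusted p below 0.05). The mean deviation of the neutrophil markers was highest on HFD3, the array with the highest pump levels, at 1.27 against -0.69 on HFD1 and -0.84 on HFD2. S100a8, S100a9, Csf3r, Mmp8 and Cxcr2 were highest on HFD3. Ly6g, Ngp, Camp and Ltf were highest on an NCD array, and Ngp, Camp and Ltf had means below background. Without HFD3 the pump median was 0.90. The part of smooth muscle, mesothelial, fibroblast, mast, neutrophil and proliferating cells in the changes of the members was not tested.

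With the mean deviation of the endothelial markers as a covariate, the pump median was 0.72 and the regulator median 0.32, and 5 pump genes and 1 regulator were called. Over all rows, 285 were called higher with this covariate, against 1551 without it. The 8 members called were Atp6v0a1, Tcirg1, Atp6v1a, Atp6v1c1, Atp6v1h, Clcn7, Fnip2 and Gpnmb. Mitf had a change of 0.54 in this fit, against 1.45 without the covariate, and Rraga a change of -0.26, against 0.25. With the macrophage markers as the covariate, a fit chosen after the data were seen, the pump median was 0.95 and the regulator median 0.50. In that fit 7 pump genes and 1 regulator were called, and 658 of all rows were called higher.

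**Figure D4:**
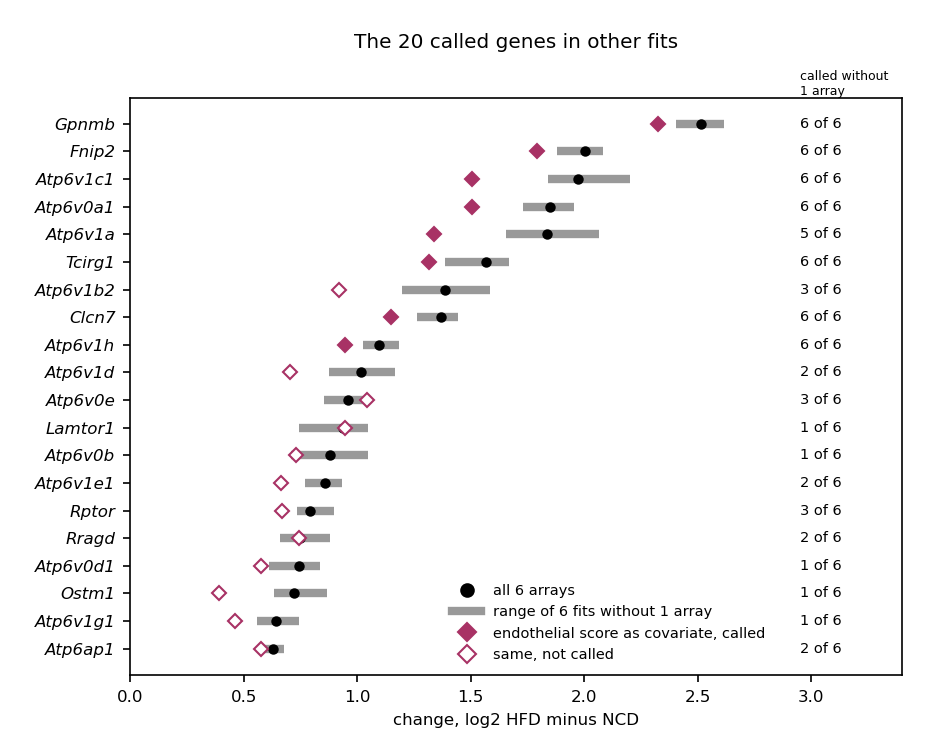
Change (log2 HFD minus NCD) of the 20 called genes with all 6 arrays (black points), its range over 6 fits that each leave out 1 array (grey bars) and its value with the endothelial score as a covariate (diamonds, filled where called). The 8 filled diamonds include 5 pump genes, and the column on the right gives how many of the 6 fits called the gene.

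**Figure D5:**
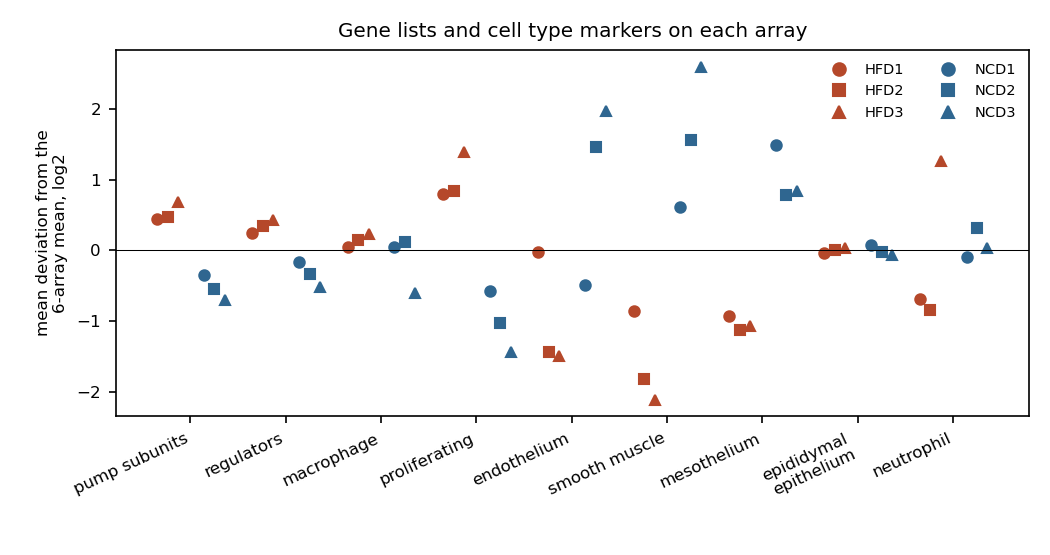
Mean deviation of each gene list from its mean over the 6 arrays (vertical axis, log2) for pump genes, regulators and cell type markers, with HFD arrays in red left of NCD arrays in blue and a symbol per array. Pump genes and proliferation markers are higher on all 3 HFD arrays, while endothelial markers run from -1.49 on HFD3 to 1.98 on NCD3 with HFD1 and NCD1 between.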

How the data were processed

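RNA of the pooled selected cells (100 ng per pool) was measured on 6 Affymetrix arrays. The authors deposited log2 expression per transcript cluster; per the submitters' processing notes the tools were RMA, Transcriptome Analysis Console 3.1.0.5 and version 1.4.1.46 of Affymetrix Expression Console. Their options and the genome build are not given in the sources used here. Of 65956 clusters (6732 control probe sets left out), 32750 had a gene symbol; the row with the highest mean was kept per gene, which left 31715 rows, 1820 of them with several symbols. All measured members sat on rows with 1 symbol. Background was the 95th percentile of 23 antigenomic probe sets, 6.23 log2. Arrays correlated at 0.995 within HFD, 0.985 to 0.993 within NCD and 0.976 to 0.988 between diets.

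Diets were compared with limma 3.58.1 in R 4.3.3 (lmFit, eBayes with a mean-variance trend, two-sided, 2.62 prior degrees of freedom), with Benjamini-Hochberg adjustment across the rows tested, and checked on simulated data. In the simulated data, where 200 of 31715 rows were changed, 63% of 2-fold changes and 89.4% of 4-fold changes were called. A mean of 7.2 unchanged rows per run was called as well. The adjusted threshold depends on how many rows change, so these shares do not carry over to the arrays. The SDs of rows were shuffled across levels there, so the simulated data lack the mean-variance trend of the arrays. Arrays have no read depth, and their number limits the precision. The median standard error was 0.118 over all rows tested, 0.151 over the 37 members and 0.168 over the pump genes. Figures were drawn with matplotlib 3.10.9 in Python 3.11.15 with pandas 2.3.3. The members and lists were chosen with earlier results of these data known. Values on every array are given for called members, the MiT factors, Mtor, Rptor, Flcn, Lamtor1 and the member with the largest change of each role; of the other pathway lists the called genes are named, or the 2 with the smallest adjusted p-values; any others were chosen after their values were seen. Genes without a row of their own were not analysed here. Alternatives changed centring, normalization, the trend, filters, row choice, array weights, a marker covariate, a replicate block and single arrays.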

Additional observations from a re-analysis of the deposited data

How the results depend on the processing

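The directions of the pump and regulator medians held under every alternative run, and the counts of called genes did not. The main counts were 13 of 16 pump genes, 4 of 18 regulators and 20 of 37 members. Regulators called numbered 10 with median centring, 8 without the mean-variance trend, 9 with rows below background dropped and 11 with array weights. In the same order, the rows called higher over all were 2633, 1819, 1961 (of 16642 tested) and 2463, against 1551 in the main fit. With all transcript clusters tested, 10 pump genes, 3 regulators and 15 members were called, and 1413 of 65956 rows were called higher. With the endothelial covariate 5 pump genes, 1 regulator and 8 members were called, with medians of 0.72 (pump) and 0.32 (regulators). With the macrophage covariate, chosen after the data were seen, these counts were 7, 1 and 10, and pump minus regulator median was 0.44. Without each array in turn, 4 to 14 pump genes, 1 to 11 regulators and 7 to 28 members were called, with medians of 0.90 to 1.05 and 0.53 to 0.77 and a difference of 0.28 to 0.44. Such fits have fewer arrays, and over all rows 291 to 2508 were called higher in them. With the endothelial covariate 285 of all rows were called higher, and with the macrophage covariate 658.

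Replicate numbers did not pair the arrays: the correlations of same-numbered arrays' deviations from their group means were -0.458, -0.122 and -0.147, and 0 of 3 HFD arrays correlated best with its own number. With the replicate block 0 pump genes, 0 regulators and 1 member, Gpnmb, were called. Over all rows 71 were called higher with it, against 1551 in the main fit.

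A sign turned in genes that did not pass the test. Atp6v0a2 was -0.0064 with quantile normalization, -0.0013 without HFD3 and -0.0423 without NCD1, up to 0.1246 without NCD3. Mtor was -0.0276 with array weights, -0.0023 without HFD3 and -0.124 without NCD1, up to 0.1117 without NCD3. With the endothelial covariate Rraga was -0.26 and Ppp3r1 -0.0336. The causes were not tested. Over all alternatives, single members kept direction and side of the threshold in 488 values, were newly called in 36, lost the call in 98 and turned sign in 7; for the other pathway genes named, these numbers were 191, 6, 72 and 1.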

Other observations

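Osteoclasts acidify bone with the same pump, and their marker list was read on these arrays, Atp6v0d2 included. Of 8 genes 4 rose, 1 fell and 3 did not pass, with a median change of 0.93. Ctsk, the collagen-degrading lysosomal protease, had levels of 14.69, 14.46 and 14.85 in HFD arrays, against 11.10, 10.65 and 10.60 in NCD arrays (3.88 ± 0.18, adjusted p = 0.000771). The tartrate-resistant acid phosphatase gene Acp5 rose by 1.53 ± 0.23 (adjusted p = 0.0153) and the cell fusion gene Dcstamp by 1.47 ± 0.32 (adjusted p = 0.0429). Mmp9, a matrix protease also made by neutrophils, was lower, at 6.31, 6.19 and 7.80 in HFD arrays, against 8.75, 9.41 and 9.30 in NCD arrays (-2.39 ± 0.44, adjusted p = 0.0269). The calcitonin receptor gene Calcr and Oscar, which osteoclasts express, had means below background.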
